A study of Saccharomyces cerevisiae with 46 samples.

Results

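Among 20 evolved lines of budding yeast, 11 had little read coverage over the BUB3 gene and 9 did not. The 2 classes were compared for the coverage of chromosomes, of single bins and genes, of mitochondrial DNA, and of the ribosomal DNA and CUP1 arrays. The 11 lines low in BUB3, called BUB3-low here, were A2, A3, B3, C2, C4, D2, D4, E3, E4, F4 and G4. The 9 others, called BUB3-covered, were G1, F3, D1, D3, C1, C3, B2, A1 and A4. The members were chosen by a measured value of the same evolved samples, the coverage of BUB3. The BUB3 value is the mean log2 copy ratio of the 2 bins of 1 kb that overlap the gene, minus the median of chromosome XV, and a line was low when its evolved sample lay under -0.6.

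The series of 46 samples held genomic DNA from overnight cultures of the W303 background, made into tagmentation libraries and sequenced. The evolved samples compared here are 1 culture per line, and the same 20 lines were also sampled in a non-evolved state. The labels give neither the genotype of a line, nor its ploidy, nor the conditions of evolution, and they do not say what lines that share a letter have in common. All groups share the W303 background, and no treatment is labelled. A wildtype strain, LY1, with 1 sample per state, serves as a reference level without replicates.

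Bub3 is a conserved protein of the spindle assembly checkpoint, which holds cells before anaphase until every kinetochore is attached to the spindle. With Bub1 it binds phosphorylated sites on the kinetochore protein Spc105, and from there it also helps to recruit shugoshin, a protein of the centromere that favours correct attachment. Budding yeast can live without BUB3, but its cells mis-segregate chromosomes often, and a culture can then be taken over by cells with an extra copy of one chromosome or another.

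The lowered coverage of BUB3-low lines lay in the 2 bins that overlap the gene. BUB3 (YOR026W, chromosome XV 379781 to 380806 in R64) fills 80.6% of the bin at 380001 to 381000 and 22% of the bin before it, which it shares with HST3, a gene for a histone deacetylase. Relative to the XV median, the bin at 380001 stood at -1.97 to -1.53 in BUB3-low lines (median -1.73) and at -0.25 to 0.18 in BUB3-covered lines (median -0.04). As a linear ratio this was 0.256 to 0.346 of the XV median in BUB3-low lines and 0.841 to 1.14 in BUB3-covered lines. The bin at 379001 stood at -0.96 to -0.44 in BUB3-low lines (linear ratio 0.514 to 0.740) and at -0.33 to 0.07 in BUB3-covered lines (0.795 to 1.05). Bins of 1 kb do not place the edges of the drop, which may reach beyond the gene within this bin. No line of one class overlapped the other in either bin, but these values chose the classes and are given without a test. The next bin on each side, at 378001 within HST3 and at 381001 within the chaperone gene STI1, both averaged -0.01 in BUB3-low lines, against 0.05 and -0.04 in BUB3-covered lines. The other bins within 5 kb averaged -0.02 to 0.09 in BUB3-low lines and -0.15 to 0.03 in BUB3-covered lines.

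**Figure D1:**
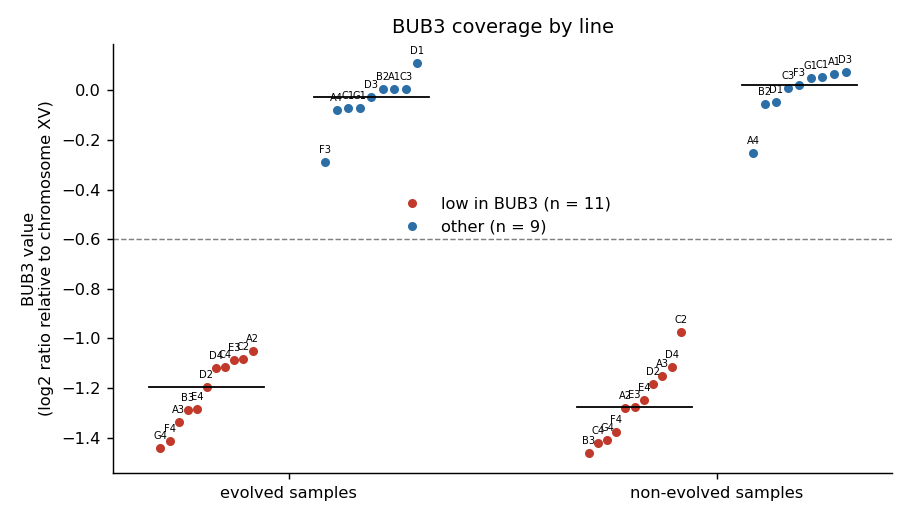
BUB3 value (log2 ratio relative to chromosome XV, vertical axis) of each line in its evolved and non-evolved sample, with BUB3-low lines in red and the other lines in blue. Black bars are medians and the dashed line is the threshold of -0.6, and no line lies between -0.97 and -0.29 in either state.

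The BUB3 value itself ran from -1.44 in G4 to -1.05 in A2 among BUB3-low lines, and from -0.29 in F3 to 0.11 in D1 among BUB3-covered lines. The lines just under the threshold were A2 at -1.05 and C2 at -1.08, and those just over it were F3 at -0.29 and A4 at -0.08. The wildtype stood at -0.03 in its evolved sample. The non-evolved samples of the same lines were not used to set the classes. There the BUB3 value was -1.26 ± 0.15 in BUB3-low lines (SD, n = 11) and -0.01 ± 0.10 in BUB3-covered lines (SD, n = 9). The difference of -1.26 had an exact p of 0.00116, the smallest that 1728 exchanges of the classes within letters can give (two-sided exact permutation test, adjusted p = 0.00463 over 4 tests). These are the same lines that were sorted by BUB3 coverage, so this p is no independent support for the classes. It also counts among the 4 tests over which the gain counts below were adjusted. The classes did not overlap in the non-evolved samples either, at -1.46 to -0.97 in BUB3-low lines and -0.25 to 0.08 in BUB3-covered lines.

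Every BUB3-low line carried at least 1 whole extra chromosome, while 7 of the 9 BUB3-covered lines carried none. The level of a chromosome is the median log2 ratio over its bins with the baseline of the sample subtracted, and a level of 0.3 or above was counted as a gain. A level of 1 is a ratio of 2. BUB3-low lines had 2.09 ± 0.70 gains (SD, n = 11) and BUB3-covered lines had 0.22 ± 0.44 (SD, n = 9). Within letters the difference was 1.78 gains per line (two-sided exact permutation test p = 0.00347, adjusted p = 0.00694 over 4 tests). By line, 11 of 11 BUB3-low lines and 2 of 9 BUB3-covered lines had a gain, a difference within letters of 0.78 in the share of lines (exact permutation test p = 0.00694, adjusted p = 0.00926). In all there were 23 gains in BUB3-low lines and 2 in BUB3-covered lines, and the lowest level of any chromosome was -0.0547 in either class.

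**Figure D2:**
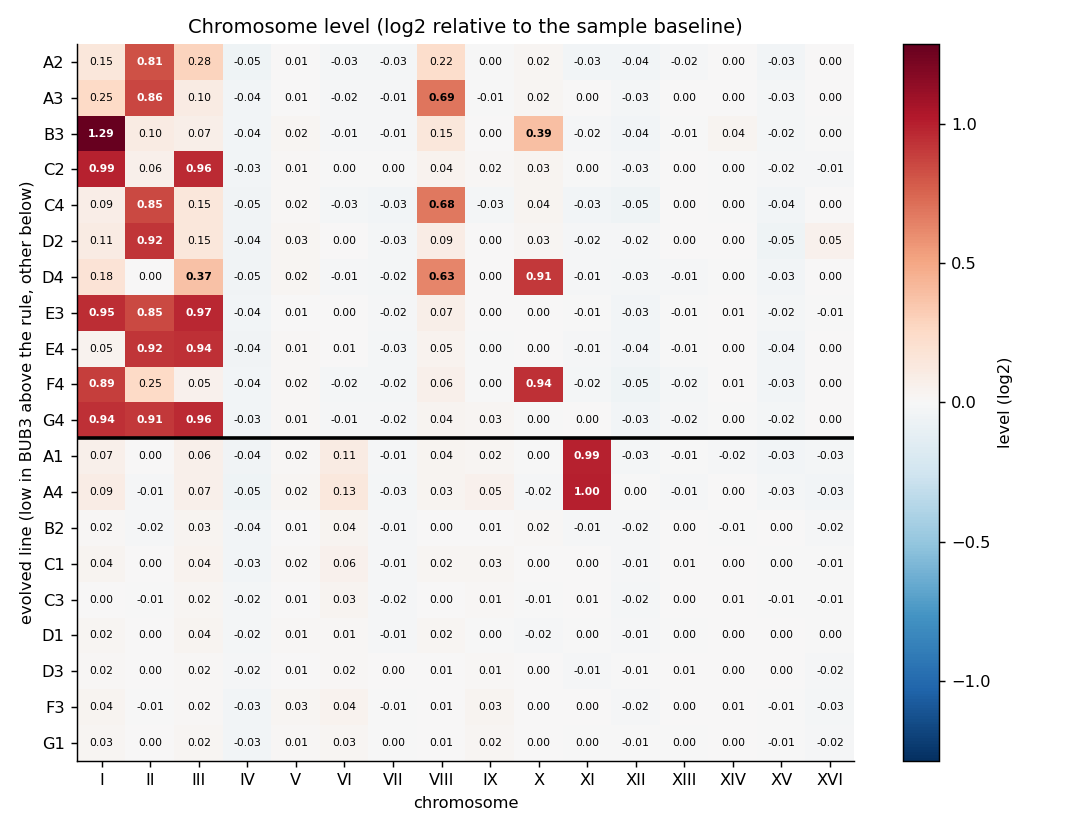
Level of each of the 16 chromosomes (columns, log2 relative to the sample baseline) in the 20 evolved lines (rows), with the 11 BUB3-low lines above the black line and the 9 BUB3-covered lines below it. Levels of 0.3 or above are in bold, and they lie on I, II, III, VIII and X above the line and on XI below it.

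The gained sets differed from line to line. Among BUB3-low lines, A2 and D2 carried chromosome II alone, at 0.81 and 0.92. A3 and C4 carried II (0.86 and 0.85) with VIII (0.69 and 0.68). E3 and G4 carried I (0.95 and 0.94), II (0.85 and 0.91) and III (0.97 and 0.96). E4 carried II (0.92) with III (0.94), and C2 carried I (0.99) with III (0.96). B3 and F4 carried I (1.29 and 0.89) with X (0.39 and 0.94). D4 carried X (0.91), VIII (0.63) and III (0.37). Thus 2 BUB3-low lines had 1 gain, 6 had 2 and 3 had 3. Chromosome II or X was gained in 10 of the 11, C2 being the exception, and no evolved line gained both. This carries no test, I or II was also gained in 10, and the non-evolved sample of G4 carried both II and X. Among BUB3-covered lines A1 and A4 carried chromosome XI, at 0.99 and 1.0, and no other gain.

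The gains spanned whole chromosomes. Between the first and the second part of a gained chromosome, divided at its middle bin and leaving out the outer 20 kb at each end, the level differed by at most 0.06 in BUB3-low lines and by less than 0.01 in BUB3-covered lines. The lowest median of a window of 20 bins within a gained chromosome was 0.296, on III of D4. Gains reached 0.8 or above in 18 of 23 cases in BUB3-low lines and in both cases in BUB3-covered lines. The 5 gains under 0.8 were the 3 gains of VIII, X of B3 and III of D4, and the I of B3, at 1.29, was the highest level. A culture in which part of the cells carry an extra chromosome and one in which copies per cell differ cannot be told apart in bulk DNA. Counted as DNA above the baseline, the gains added 527 to 1226 kb in BUB3-low lines (median 984 kb), against 657 kb in A1 and 667 kb in A4 of the BUB3-covered lines.

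Chromosome by chromosome, levels were tested by exchanging the classes within letters, with adjustment over 16 chromosomes. Results are given for 15, because the XV median entered the rule. In BUB3-low lines 6 of the 15 were higher (40%) and 3 were lower (20%) at an adjusted p under 0.05. The number called moved with the settings. It was 13 with a baseline over all nuclear bins, 14 with chromosome means and 8 with a baseline over the chromosomes gained in no line. The largest differences were on the chromosomes that carried gains. Small shifts of 0.02 to 0.07 were called too, and these are given last.

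Chromosome II ran from 0.00 to 0.92 in BUB3-low lines (median 0.85, gained in 7) and from -0.02 to 0.00 in BUB3-covered lines (gained in 0). Its means were 0.60 ± 0.39 (SD, n = 11) in BUB3-low and -0.00 ± 0.01 (SD, n = 9) in BUB3-covered lines, with a within-letter difference of 0.53 (exact permutation test p = 0.00116, adjusted p = 0.00309). Chromosome I ran from 0.05 to 1.29 in BUB3-low lines (median 0.25, gained in 5) and from 0.00 to 0.09 in BUB3-covered lines. Its difference was 0.51, with the same p and adjusted p. The ranges of I overlapped, since E4 at 0.05 and C4 at 0.09 lay within the values of BUB3-covered lines.

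Chromosome III ran from 0.05 to 0.97 in BUB3-low lines (median 0.28, gained in 5) and from 0.02 to 0.07 in BUB3-covered lines, with a difference of 0.31 and the same adjusted p of 0.00309. Without C1 or without C3, both BUB3-covered, the III difference no longer passed (adjusted p up to 0.0685). Chromosome VIII ran from 0.04 to 0.69 in BUB3-low lines (median 0.09, gained in 3) and from 0.00 to 0.04 in BUB3-covered lines, with a difference of 0.27 and again an adjusted p of 0.00309. For I, II, III and VIII every BUB3-low line was higher than every BUB3-covered line of its own letter, in all 6 letters that hold both classes. On II in letter D this rests on D4 at 0.004158 against D1 at 0.00411, closer than the error of either level (0.007 and 0.006). On VIII in letter C it rests on C2 at 0.040 against C1 at 0.024 (errors 0.009 and 0.008), neither of them a gain. With chromosome means the exact permutation p of II was 0.00231 (adjusted p = 0.0037). VI and XII, whose small shifts are given below, were separated in all 6 letters too, with BUB3-low lines lower. On XII the gap was closer than the error of either level in letters A, C and D. In A it was A3 at -0.0252 against A1 at -0.02504 (errors 0.006 and 0.005). On VI this held in letter D, with D2 at 0.000 against D1 at 0.012 (errors 0.013 and 0.013). The p of 0.00116 is the smallest this test allows, so it does not rank these chromosomes.

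Chromosome X ran from -0.00 to 0.94 in BUB3-low lines (median 0.03, gained in 3) and from -0.02 to 0.02 in BUB3-covered lines. Its difference of 0.27 passed (exact permutation test p = 0.00231, adjusted p = 0.00529), but not without D1 or D3 (adjusted p up to 0.125), nor with the letters left out of the test (adjusted p = 0.0914). Chromosome XI went the other way. It ran from -0.03 to 0.00 in BUB3-low lines and from -0.01 to 1.0 in BUB3-covered lines, a difference of -0.23 (exact permutation test p = 0.00926, adjusted p = 0.0148). Without A1 and A4, which carry the gains of XI, it was -0.01 (adjusted p = 0.0808). It also did not pass without the outer 20 kb of each chromosome (-0.23, adjusted p = 0.05) or with a baseline over the 9 chromosomes gained in no line (adjusted p = 0.189).

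Besides the gains, BUB3-low lines held 12 levels between 0.1 and 0.3, against 2 in BUB3-covered lines. In BUB3-low lines these were 4 on chromosome I, 4 on III, 2 on II and 2 on VIII. Examples are III of A2 at 0.28, II of F4 at 0.25 and I of A3 at 0.25. In BUB3-covered lines both were chromosome VI, at 0.11 in A1 and 0.13 in A4. These levels lie well above the error of a level over its bins, at most 0.02, which holds within a library and leaves out the spread between cultures.

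The remaining called shifts were small. Chromosome VI was lower in BUB3-low lines by 0.07, at -0.03 to 0.01, against 0.01 to 0.13 in BUB3-covered lines (adjusted p = 0.00309, exact permutation test). XII was lower by 0.02 (adjusted p = 0.00309) and XVI higher by 0.02 (adjusted p = 0.00617). Each of these 3 shifts kept its sign with chromosome means, with 2 other baselines and without the outer 20 kb, but XVI no longer passed with chromosome means or with a baseline over all nuclear bins (adjusted p = 0.111 and 0.213). Whether such shifts reflect copies or coverage that moves with chromosome length was not tested.

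The class difference in gains was already present in the non-evolved samples. There BUB3-low lines carried 19 gains, in 11 of 11 lines, and BUB3-covered lines carried 4, in A1 and A4, which had XI and XII. Of the 23 gains of evolved BUB3-low lines, 7 were also gains in the non-evolved sample of the same line, as were both gains of evolved BUB3-covered lines. From the non-evolved to the evolved sample the number of gains changed by 0.36 ± 0.81 per line (SD, n = 11) in BUB3-low lines and by -0.22 ± 0.44 (SD, n = 9) in BUB3-covered lines. The classes differed in this change by 0.56 within letters (exact permutation test p = 0.194). With a gain threshold of 0.2 the difference was 0.89 (exact permutation test p = 0.0556), and with 0.5 it was 0.33 (p = 0.521). Leaving out D2, a BUB3-low line, gave 0.76 and an adjusted p of 0.0139. For single chromosomes the change differed between classes in 0 of 15 cases (exact permutation test, lowest adjusted p = 0.537), with 1 at an unadjusted p under 0.05, chromosome VIII.

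With whole-chromosome differences removed, by setting each bin against the median of its chromosome, almost nothing else separated the classes. In limma with the letter as a block, 3 of 11808 bins were higher in BUB3-low lines (0.0254%) and 1 was lower (0.00847%) at an adjusted p under 0.05. The 2 bins of the rule were left out of these counts but stayed in the adjustment. At an unadjusted p under 0.05 there were 715. All 3 higher bins adjoin each other on chromosome III, 90001 to 93000, over LEU2.

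LEU2 (YCL018W, chromosome III 91324 to 92418 in R64) encodes the isopropylmalate dehydrogenase of leucine synthesis, and a mutant allele of it is an auxotrophic marker of W303. Its first bin, at 91001, stood at 0.62 to 0.97 relative to chromosome III in BUB3-low lines (median 0.85) and at -0.06 to 0.24 in BUB3-covered lines (median 0.10). The bin at 92001 stood at 0.53 to 1.03 in BUB3-low lines and at -0.06 to 0.20 in BUB3-covered lines. The classes did not overlap in either bin. The differences were 0.73 (SE 0.05, adjusted p = 2.37e-08) and 0.71 (SE 0.06, adjusted p = 2.37e-07), from limma. The bin before them, at 90001, holds the tRNA gene SUP53 and part of a Ty element open reading frame (YCL019W). It was higher by 0.66 (SE 0.08, adjusted p = 3.01e-05, limma), at -0.48 to 0.09 in BUB3-low lines and -1.23 to -0.75 in BUB3-covered lines. The rise did not reach the next bin, which lies in NFS1, a gene that encodes a cysteine desulfurase of iron-sulfur cluster assembly. That bin, at 93001, averaged 0.04 ± 0.10 in BUB3-low lines (SD, n = 11) and 0.04 ± 0.10 in BUB3-covered lines (SD, n = 9).

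**Figure D3:**
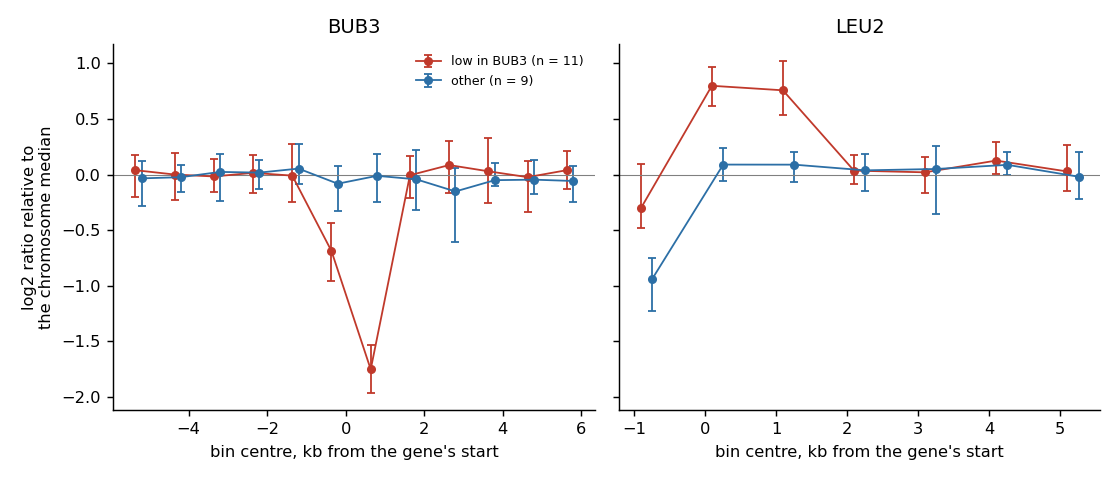
Mean log2 ratio relative to the chromosome median (vertical axis) by distance of the bin centre from the start of BUB3 (left) and of LEU2 (right), in kb, with bars from the lowest to the highest line. BUB3-low lines (red) drop to a mean of -1.75 in the main BUB3 bin and stand at 0.80 and 0.76 over LEU2, where the others (blue) average 0.09.

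The LEU2 excess was present in BUB3-low lines with and without a gain of chromosome III. In linear terms the 2 LEU2 bins stood at 1.92 to 2.20 times the sample baseline in the 6 BUB3-low lines without a gain of III, whose III ratio was 1.04 to 1.22. In the 5 with a gain of III they stood at 2.22 to 3.09 times the baseline, with a III ratio of 1.3 to 1.96. The LEU2 ratio exceeded the III ratio by 0.85 to 1.0 in the lines without that gain and by 0.92 to 1.13 in those with it, against 0.02 to 0.15 in BUB3-covered lines. Over all BUB3-low lines the excess was 0.97 ± 0.08 (SD, n = 11), and in BUB3-covered lines 0.07 ± 0.04 (SD, n = 9). This excess was computed after the LEU2 bins had been seen to differ and carries no test. The excess was also there before evolution. Relative to III, the LEU2 bins stood at 0.52 to 1.11 in non-evolved BUB3-low lines and at -0.06 to 0.13 in non-evolved BUB3-covered lines. The wildtype had 0.20 after evolution and 0.06 before it.

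**Figure D4:**
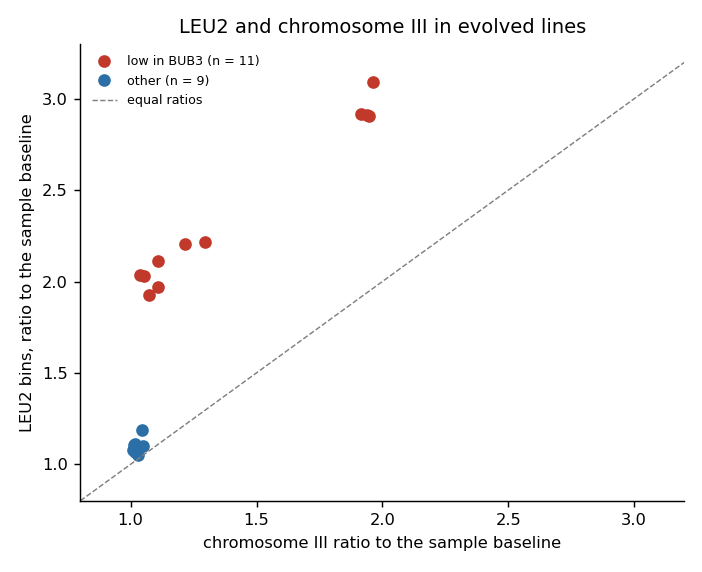
Ratio of the LEU2 bins to the sample baseline (vertical axis) against the ratio of chromosome III to the baseline (horizontal axis), both linear, in the 20 evolved lines. BUB3-low lines (red) lie 0.85 to 1.13 above the dashed line of equal ratios at every level of III, and the other lines (blue) lie 0.02 to 0.15 above it.

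The only other called bin lay on VIII at 86001 to 87000, within open reading frames of a Ty element (YHL009W-A and YHL009W-B). It stood at -3.79 to -3.09 in BUB3-low lines and at -3.59 to -2.69 in BUB3-covered lines, a difference of -0.42 (SE 0.08, limma adjusted p = 0.0341). It held 16 to 28 reads in BUB3-low and 19 to 33 in BUB3-covered samples, the classes overlapped, and the call was lost on leaving out any one of 12 lines (adjusted p up to 0.121) or the letters (adjusted p = 0.674).

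Of the 7 other marker genes listed, 1 was called. Relative to the sample baseline, URA3, of pyrimidine synthesis, averaged 0.06 ± 0.14 in BUB3-low lines and 0.07 ± 0.11 in BUB3-covered lines (limma adjusted p = 0.935). HIS3, TRP1, ADE2, MET15 and CAN1 differed by -0.08 to 0.08, with adjusted p from 0.179 to 0.786. LYS2, of lysine synthesis, lies on II and was higher by 0.53 (adjusted p = 0.0282), but by -0.01 relative to the median of II. The alpha genes at MAT had little coverage in both classes. MATALPHA1, a regulator of alpha-specific genes, stood at -3.34 ± 0.41 in BUB3-low lines and -3.97 ± 0.44 in BUB3-covered lines. MATALPHA2, its partner repressor, was called higher in BUB3-low lines, by 0.53 (limma adjusted p = 0.0282). MATALPHA1 differed by 0.65 and did not pass (limma adjusted p = 0.0623). Chromosome III itself was higher by 0.31 in BUB3-low lines, and 9 leave-one-out fits ended the call of MATALPHA2. Both genes share sequence with the silent cassettes on the same chromosome, and reads of the copies cannot be told apart. The silent-locus genes HMLALPHA1, HMLALPHA2, HMRA1 and HMRA2 differed by 0.08 to 0.15 and were not called (limma adjusted p 0.663 to 0.914). Lines varied widely at HMR. HMRA1 ran from -0.53 to 1.29 in BUB3-low and from -0.35 to 0.42 in BUB3-covered lines. HMRA2 ran from -0.90 to 1.16 in BUB3-low and from -0.71 to 0.28 in BUB3-covered lines.

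Seen gene by gene, most calls lay on chromosome II. Relative to the sample baseline, limma with the letter as a block called 443 of 5968 genes higher in BUB3-low lines (7.42%) and 12 lower (0.201%). At an unadjusted p under 0.05 there were 1491. Of the genes called higher 356 were among the 413 on II, 26 on I, 25 on VIII and 20 on III, and 4 on X. The median gene difference was nearly as large on I (0.51) as on II (0.53), and was 0.31 on III, 0.27 on VIII and 0.26 on X. These calls lay near the threshold. Leaving out any one of A1, A2, A3, A4, C1, C3, D1, D3, G1 or G4 left 1 or 2 called genes, LEU2 among them, while leaving out any one of the other 10 lines left 391 to 617. Genes on 1 chromosome share its level, so they are not independent.

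Genes of the mitotic machinery followed the chromosome they lie on. Over all genes tested the median difference was 0.01. Of the listed genes on II, 9 of 10 were called higher in BUB3-low lines, beside 86.2% of all genes on II, with differences of 0.43 to 0.62 (limma adjusted p 0.0292 to 0.0659). They include SLI15, which activates the Aurora kinase Ipl1, at 0.56 ± 0.42 in BUB3-low and -0.10 ± 0.09 in BUB3-covered lines. CDC27, a subunit of the anaphase-promoting complex, stood at 0.61 ± 0.37 in BUB3-low and 0.03 ± 0.07 in BUB3-covered lines. The kinetochore genes AME1, IML3 and DAD3 were higher by 0.50 to 0.62. BRN1, of condensin, was higher by 0.49. The spindle genes KIP1, a kinesin, and STU1, a microtubule-binding protein, were higher by 0.50 and 0.55. SSA3, an Hsp70 chaperone, was higher by 0.54, and HSP26, a small heat shock protein, at 0.43 did not pass. For each of the 9 called genes at least 10 of the 20 leave-one-out fits ended the call.

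The counts by list stand beside 7.42% of all genes called higher. BUB3 aside, 0 of 5 spindle checkpoint genes were called, with a median difference of 0.04. MAD2 and MAD3, which with Cdc20 form the checkpoint's inhibitor of the anaphase-promoting complex, both lie on X. MAD2 differed by 0.36 (adjusted p = 0.0623) and MAD3 by 0.28 (adjusted p = 0.113). MAD1, BUB1 and MPS1, on chromosomes without gains, differed by -0.02 to 0.04. Of the 5 chromosomal passenger and shugoshin genes 1 was called (SLI15, median of the list 0.22), with BIR1 on X at 0.25 and NBL1 on VIII at 0.22 not passing. Of 18 anaphase-promoting complex and separase genes 1 was called (median -0.01), of 40 kinetochore genes 3 (median 0.00), and of 14 cohesin and condensin genes 1 (median -0.01). Of 20 tubulin, motor and microtubule genes 2 were called (median 0.00), of 11 phosphatase genes 0 (median 0.01), and of 13 chaperone and proteasome regulator genes 1 (median 0.01). All calls were in the higher direction, and the lists were chosen with earlier results of these data known.

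Listed genes on the other chromosomes gave the same picture without a call. On I, the kinetochore gene MTW1, the phosphatase genes TPD3 and BUD14 and the Hsp70 gene SSA1 differed by 0.48 to 0.54 (adjusted p 0.0532 to 0.0801). On X, BIR1, CBF1, MCM22, NNF1 and SMC3 joined MAD2 and MAD3 at 0.17 to 0.36, and on VIII CDC23 and NBL1 differed by 0.22 to 0.24. BIK1, a microtubule plus-end protein on III, differed by 0.30 (adjusted p = 0.126). On XI, where A1 and A4 carried the gain, ASK1, CDC16, CSE4, DAD2, MIF2, SDS22 and SPC34 differed by -0.29 to -0.24 (adjusted p 0.0716 to 0.373). The 9 listed genes on VI (CDC14, CDC26, CNN1, ECO1, SMC1, SMC2, TUB2, UBP6 and YPI1) differed by -0.18 to 0.01. The 10 on XII (APC2, APC9, CTF3, HSP104, NKP2, SMC4, SSA2, STU2, TUB4 and YCS4) differed by -0.09 to 0.04, and the 9 on XVI (CIN2, CTF19, HSP82, IPL1, KAR3, KIP2, MCM16, NSL1 and VIK1) by -0.01 to 0.09.

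Mitochondrial DNA was incomplete in more BUB3-covered than BUB3-low lines, but the difference did not pass. Yeast cells that keep only part of their mitochondrial DNA, often in many copies, are known as rho-minus cells and cannot respire. Of the 86 mitochondrial bins, B3 had 22 covered and the other 10 BUB3-low lines had all. Among BUB3-covered lines A1 had 3 covered, C3 had 6, and D1 and D3 had 10 each, while the other 5 had all. In these 5 lines the highest mitochondrial bin reached a log2 level of 7.47 in B3, 9.10 in A1, 7.95 in C3, 7.63 in D1 and 7.48 in D3, against 4.37 to 4.84 in the complete BUB3-low lines and 4.10 to 4.56 in the complete BUB3-covered lines. The covered share was 93.2% ± 22.4 in BUB3-low lines (SD, n = 11) and 59.3% ± 48.3 in BUB3-covered lines (SD, n = 9). The difference within letters was 32.4 percentage points (exact permutation test p = 0.0833, adjusted p = 0.0833 over 4 tests). In the non-evolved samples all 20 lines had every mitochondrial bin covered.

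The mitochondrial DNA level, the log2 of the mean ratio of its bins, was 3.77 to 4.53 in BUB3-low lines (median 4.11) and 2.89 to 4.26 in BUB3-covered lines (median 3.77). Its difference was 0.46 (exact permutation test p = 0.0081, adjusted p = 0.0324). Without the 5 lines with a partly covered genome it was 0.15 (adjusted p = 0.222), and 6 of the 20 leave-one-out tests ended the call (without A1, A3, F3, F4, G1 or G4).

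The ribosomal DNA array, the tandem repeat on XII that encodes ribosomal RNA, was lower in 4 BUB3-covered lines. Its level was 2.44 to 2.98 in BUB3-low lines (median 2.80) and 1.94 to 3.04 in BUB3-covered lines (median 2.55). The 4 lowest lines were D3 at 1.94, A4 at 1.99, A1 at 2.05 and D1 at 2.17, all BUB3-covered. The difference of 0.31 had an exact permutation p of 0.0231 (adjusted p = 0.0463). With the median log2 ratio of the array's bins in place of their mean ratio it was 0.79 (adjusted p = 0.00463, exact permutation test). It did not pass without A1 and A4 (0.23, adjusted p = 0.167), and leaving out any one of A1, A3, A4, D1, D3, D4, F3, F4, G1 or G4 also ended the call. Relative to XII, the array stood at 2.07, 1.99, 2.18 and 1.95 in evolved A1, A4, D1 and D3, against 2.91, 2.61, 2.72 and 2.74 in their non-evolved samples. The non-evolved range was 2.13 to 3.08 in BUB3-low lines, lowest in A2 and B3, and 2.58 to 3.11 in BUB3-covered lines. In the same 4 lines of letters A and D, A1, D1 and D3 also had a partly covered mitochondrial genome. Without the 5 lines with such a genome the difference was 0.29 (adjusted p = 0.222, with 36 exchanges), against 0.31 over all lines.

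**Figure D5:**
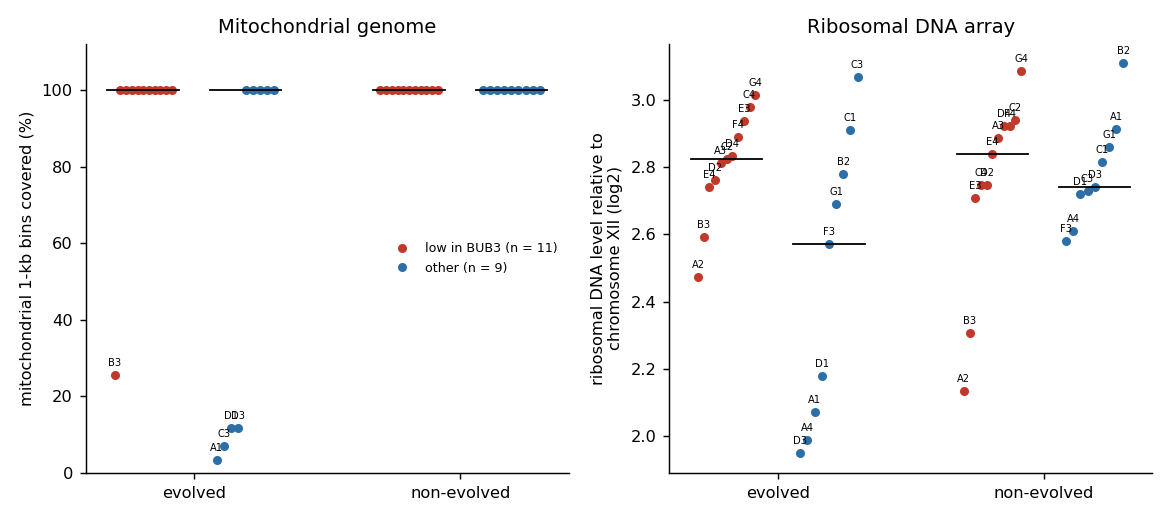
Share of mitochondrial bins covered (left, percent) and ribosomal DNA level relative to chromosome XII (right, log2) by line in evolved and non-evolved samples, BUB3-low lines in red, the others in blue, with black bars for medians. Partly covered mitochondrial genomes appear in B3 and in A1, C3, D1 and D3, and the lowest ribosomal DNA levels among evolved samples are those of D3, A4, A1 and D1.

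The CUP1 array on VIII, a tandem repeat that encodes a copper-binding metallothionein, stood at 0.75 ± 0.32 in BUB3-low lines (SD, n = 11) and 0.54 ± 0.25 in BUB3-covered lines (SD, n = 9). The difference of 0.26 did not pass (exact permutation test p = 0.0475, adjusted p = 0.0633), though it did without A2, C2 or D2 (adjusted p down to 0.0201). The highest values, 1.26 in C4, 1.20 in D4 and 1.15 in A3, belong to the 3 lines with a gain of VIII. Relative to VIII the array stood at 0.50 ± 0.12 in BUB3-low lines and 0.52 ± 0.24 in BUB3-covered lines.

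Depth was similar in the classes. The samples held 2400085 to 3656612 reads in BUB3-low lines and 2256015 to 3770032 in BUB3-covered lines, and the median bin held 169 to 265 reads in BUB3-low and 175 to 292 in BUB3-covered lines. The spread of bins around their chromosome median (scaled median absolute deviation) was 0.13 to 0.16 in BUB3-low and 0.13 to 0.17 in BUB3-covered lines. Library numbers of the classes ran through each other, from 30 to 50 in BUB3-low and from 29 to 49 in BUB3-covered lines.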

How the data were processed

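The deposited values were log2 copy ratios in 12165 bins of 1 kb per sample, in GATK's copy-number format, per the file headers, whose contigs are those of R64. Trimmomatic 0.39, BWA 0.7.17, Picard 2.27.1 and GATK are named per the submitters' processing notes. Duplicate removal and GC correction are not given in the sources used here. Reads recovered from the ratios (100% whole within 0.02 reads) totalled 1961866 to 3770032 per sample.

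The baseline of a sample is the median of its 16 nuclear chromosome medians. Classes were compared over evolved samples with exact two-sided permutation tests (Python 3.11.15), exchanging classes within letters (1728 exchanges, where letter E, with BUB3-low lines only, adds nothing). Bins and genes were tested with limma 3.58.1 and the letter as a block, leaving out bins empty in over 50% of the samples, with 0.5 reads for an empty bin. Adjustment is by Benjamini-Hochberg: over 16 chromosomes, over all bins or genes, and over 4 single measures at a time. The 2 bins of the rule and the genes in them took part in the adjustment but not in the counts. A mitochondrial bin counted as covered above a log2 ratio of -2. Named are chromosomes that passed or were gained in at least 2 BUB3-low lines or in any other, called bins, and listed genes on named chromosomes, markers and mating-type loci included. Members and lists were chosen with earlier results of these data known. The tests were tested on simulated data. For limma each bin or gene was drawn independently there, whereas genes of 1 chromosome share its level here, so that check says nothing of such shared levels.

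As a check of pairing by letter, bin deviations correlated at -0.05 to 0.03 between lines of the same letter and different class (15 pairs, 11726 bins, 0 over 0.1). The letter is used as a block because the comparison's rule says so. This check cannot show whether lines of a letter have a common origin, because such lines need not share deviations of single bins. The check covers no pairs of the same class, and some of these shared changes. In both A1 and A4, XI was gained in both states and XII before evolution. In both D1 and D3, 10 mitochondrial bins were covered after evolution. Lines of the same letter and class may thus not be independent. Whether lines of a letter have a common origin is not labelled, and p-values then measure the spread between these samples. No evolved samples agreed within sampling noise (chi-square per degree of freedom at least 1.68).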

Additional observations from a re-analysis of the deposited data

Results flagged for a closer look

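Over 14 measures the 9 BUB3-covered lines were screened for a line far from the rest, which chance flags in about 1 of 20 groups, and 2 were found. A4 had a BUB3 value of -0.25 in its non-evolved sample, next to -0.05 for the nearest BUB3-covered line, a gap of 0.607 of the range (limit 0.493). B2 had a chromosome X level of 0.0188, next to 0.00 (0.510 of the range), which is small beside any gain.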

How the results depend on the processing

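The gain counts kept their direction in every alternative run. With no replicate block (letters left out) the differences were 1.87 gains and 0.78 of lines, both passing, with 10 chromosomes called, 4 bins and 635 genes, and of the single measures only the ribosomal DNA call was lost (0.32). Without A1 and A4 the mitochondrial DNA level (0.44) and the ribosomal DNA level (0.23) no longer passed, and 1 gene was called. Chromosome means in place of medians called 14 chromosomes and medians of log2 ratios gave 4.46 for the mitochondrial level, not passing, 0.25 for CUP1, passing, and 0.79 for ribosomal DNA, passing. The class difference in the evolved minus non-evolved level, with the line as a paired block, called 0 chromosomes and had the other sign on II (-0.19), III (-0.0170), XI (0.00279), XII (0.22) and XVI (-0.00111), since it asks about change. Gain thresholds of 0.2 and 0.5 gave 0.89 and 0.33 for the difference in gained number between states, neither passing. Bins set against the sample baseline gave 974 calls, and eBayes with a trend gave 8. Genes set against their chromosome gave 2 calls, with BRN1 at -0.0445, KIP1 at -0.0322, LYS2 at -0.00572, AME1 at -0.0302 and DAD3 at -0.00658. Leaving out 1 line at a time gave 1 to 617 genes, 0.20 to 0.31 for CUP1, 0.35 to 0.56 for the mitochondrial level, 0.26 to 0.37 for the ribosomal DNA level and 0.36 to 0.76 for the difference in gained number between states. An alternative chosen after seeing the data left out the 5 lines with a partly covered mitochondrial genome, which leaves 36 exchanges. It gave 1.79 gains, 0.71 of lines, 0.15 for the mitochondrial level, 0.29 for ribosomal DNA, -1.24 for the non-evolved BUB3 value, 0 chromosomes and 1 gene, none of the 5 differences passing, and so few exchanges say nothing of stability. The other added alternative, a baseline over the 9 chromosomes gained in no line, called 8 chromosomes. A count test with edgeR was planned and not run, since the deposited unit is a log2 ratio. Depth limits single bins, with 169 to 292 reads in the median bin, more than whole chromosomes.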
